A study of Mus musculus with 4 samples.

Results

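The genes described here are 10 genes of the transforming growth factor beta (TGF-β) and SMAD pathway, chosen by name: *Tgfb1*, *Tgfb2*, *Tgfbr1*, *Tgfbr3*, *Smad2*, *Smad3*, *Smad6*, *Smad7*, *Ski* and *Skil*. They were looked up in a list of genomic regions bound by the transcription factor NFIC in the pancreas of wild-type mice, labelled as aged 8 to 12 weeks and of mixed strain. The series comprised 3 NFIC ChIP libraries, made with the Bethyl antibody A303-123A, and 1 library of input DNA from the same tissue. They were represented by a single list, which held 15824 peaks, each 173 bp wide, assigned to 9086 genes. Of these peaks, 36 were assigned to 8 of the 10 genes, and no peak was assigned to *Tgfb1* or *Tgfb2*. Each peak had been given to the gene with the nearest transcription start site (TSS). The list had 0 columns for single libraries, so no replicate error could be given, the depth of the libraries is unknown, and no test between samples was possible. Whole pancreas was used, so a peak cannot be traced to acinar, ductal, endocrine or stromal cells, and expression was not measured in this series. Elsewhere the paper reports RNA-Seq of wild-type and *Nfic* knockout pancreata. It also reports higher NFIC staining in acinar than in ductal and endocrine cells. Neither was used here. Intervals given below are 95% Wilson intervals and cover counting error only. They treat peaks as independent, although the 36 peaks belong to 8 genes, so intervals for shares of peaks may be too narrow.

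TGF-β ligands bind a type II receptor, which activates the type I receptor encoded by *Tgfbr1*. *Tgfbr3* codes for betaglycan, a coreceptor that presents the ligands. The active receptor phosphorylates SMAD2 and SMAD3, which join SMAD4 and enter the nucleus to regulate genes. SMAD6 and SMAD7 inhibit the receptors and their SMADs, and SKI and SKIL are corepressors that bind SMAD complexes on DNA. In the pancreas the pathway is known for its part in fibrosis and as a tumour suppressor pathway. NFIC belongs to the nuclear factor I (NFI) family, whose members bind DNA in pairs at a palindromic site with an arm on each side of a short spacer.

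The sequences under the peaks are shown first. The NFI full site was searched as TGGCNNNNNGCCA, allowing 1 mismatch in the 8 fixed bases, in windows of 200 bp centred on each peak. The motif reads the same on both strands. Of the 36 windows, 23 held such a site (63.9%, 47.6 to 77.5), against 51.8% of all 15824 peaks, and 4 held a site with no mismatch (11.1%, 4.41 to 25.3, against 13.4%). The interval of each share includes the share of the whole list. Over the whole list a full site was present in 68.0% of peaks of the highest quartile of score and 46.2% of the others. It was present in 56.7% of peaks over 2000 bp from the TSS and 41.1% of nearer ones. The site is therefore not separate from score and distance, and the genes were chosen with earlier results of these data known. The windows of the highest peaks of 4 genes, and of the other peaks of *Skil*, are given on GRCm38 (mm10), plus strand, with full sites in capitals.
*Skil*, -11173 bp, chr3:31083785-31083984: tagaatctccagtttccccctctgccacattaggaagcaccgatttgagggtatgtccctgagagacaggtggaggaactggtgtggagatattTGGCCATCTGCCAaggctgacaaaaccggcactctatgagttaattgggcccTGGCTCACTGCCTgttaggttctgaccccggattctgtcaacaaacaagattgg
*Skil*, -15394 bp, chr3:31079564-31079763: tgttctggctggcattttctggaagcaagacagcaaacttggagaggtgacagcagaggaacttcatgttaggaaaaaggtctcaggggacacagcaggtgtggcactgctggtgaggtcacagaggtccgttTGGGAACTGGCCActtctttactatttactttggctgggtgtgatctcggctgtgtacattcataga
*Skil*, -233 bp, chr3:31094725-31094924: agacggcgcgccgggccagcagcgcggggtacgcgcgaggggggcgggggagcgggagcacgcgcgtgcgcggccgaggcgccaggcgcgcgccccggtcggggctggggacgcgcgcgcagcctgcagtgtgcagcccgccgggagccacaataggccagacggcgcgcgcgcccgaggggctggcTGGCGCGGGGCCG
*Smad3*, 38124 bp, chr9:63719770-63719969: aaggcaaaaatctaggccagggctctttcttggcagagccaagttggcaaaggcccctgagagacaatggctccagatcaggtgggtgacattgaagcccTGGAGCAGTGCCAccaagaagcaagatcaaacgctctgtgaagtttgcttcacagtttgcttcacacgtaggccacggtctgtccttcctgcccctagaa
*Smad6*, 53384 bp, chr9:63968575-63968774: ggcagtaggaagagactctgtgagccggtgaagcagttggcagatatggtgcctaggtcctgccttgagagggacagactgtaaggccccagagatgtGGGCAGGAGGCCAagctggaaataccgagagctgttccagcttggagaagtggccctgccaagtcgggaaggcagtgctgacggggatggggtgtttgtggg
*Tgfbr3*, 121451 bp, chr5:107168078-107168277: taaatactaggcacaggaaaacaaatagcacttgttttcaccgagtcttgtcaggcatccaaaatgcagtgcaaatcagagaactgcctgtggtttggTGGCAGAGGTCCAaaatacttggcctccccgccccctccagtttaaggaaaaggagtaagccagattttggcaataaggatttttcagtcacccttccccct

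The *Skil* window at -11173 bp held an exact site whose centre was 0 bp from the centre of the peak, and a site with 1 mismatch 52 bp away. The windows of *Smad3*, *Smad6* and *Tgfbr3* each held 1 site with 1 mismatch, 6, 4 and 4 bp from the centre. In contrast, the site in the *Skil* window at -233 bp lay at its edge, outside the listed 173 bp of the peak. The position of the site relative to the centre of the peak was also recorded. Whether this position goes with the score was not tested. Among the 23 peaks with a site, the nearest site was within 20 bp of the centre in 13 (56.5%, 36.8 to 74.4), against 44.6% of the 8193 such peaks of the whole list. The central sites of 11 of these peaks are aligned below with 5 flanking bases in lower case.
*Skil*, -11173 bp, chr3:31083874-31083896: atattTGGCCATCTGCCAaggct
*Tgfbr3*, 51061 bp, chr5:107238552-107238574: gaaacTGGCCCTGGGCCAgagac
*Tgfbr3*, 121451 bp, chr5:107168171-107168193: tttggTGGCAGAGGTCCAaaata
*Smad3*, 38124 bp, chr9:63719865-63719887: agcccTGGAGCAGTGCCAccaag
*Smad3*, -22136 bp, chr9:63780118-63780140: gctgtAGGCAGGCGGCCAggagt
*Smad6*, 63505 bp, chr9:63958556-63958578: agcccTGCCTTCTAGCCAggatc
*Smad6*, 53384 bp, chr9:63968668-63968690: gatgtGGGCAGGAGGCCAagctg
*Smad6*, 32185 bp, chr9:63989878-63989900: tgggtTGGCAGATTGTCAagagt
*Ski*, 24528 bp, chr4:155197993-155198015: tttccTGGGAACTTGCCAgaaat
*Ski*, -458 bp, chr4:155222989-155223011: gcctcTGGCCCGCGGCCTcagag
*Ski*, -13254 bp, chr4:155235771-155235793: actctGGGCTCTCTGCCAtgccg

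The sites at *Skil* -11173 bp and *Tgfbr3* 51061 bp matched all 8 fixed bases, whereas the other 9 had a single mismatch. An exact site did not go with a high score at *Tgfbr3*, where the peak at 51061 bp had the lowest score of that gene, 4.78, and the peak with a mismatched site at 121451 bp had its highest, 13.1.

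**Figure D1:**
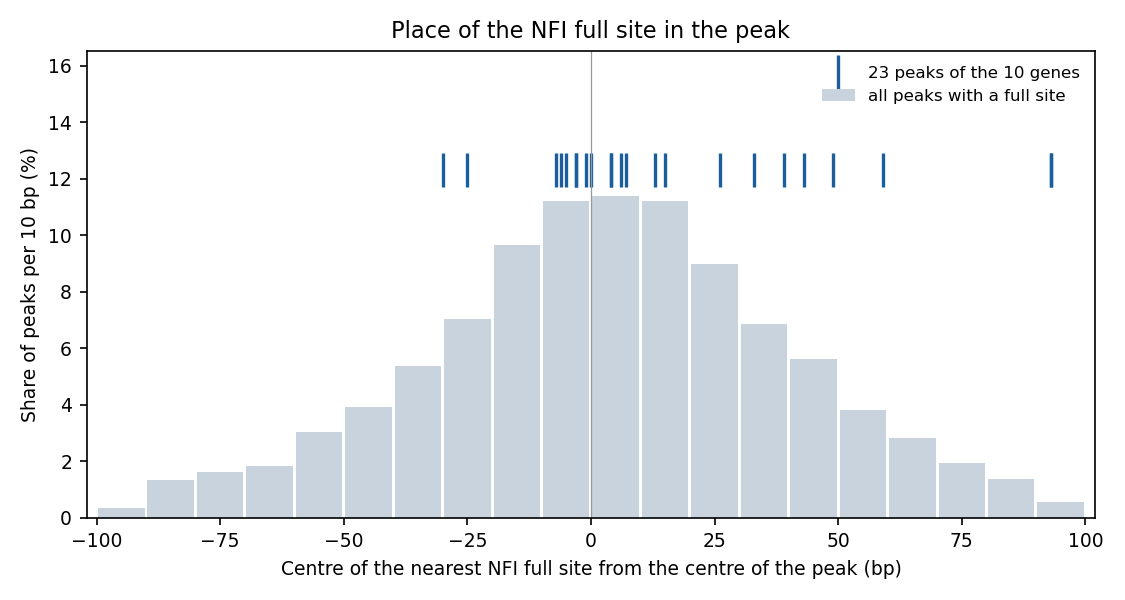
Distance in bp between the middle of a peak and that of its nearest NFI full site, as the share of all 8193 peaks with a site in bins of 10 bp (bars, percent) and for each of the 23 peaks of the 10 genes (ticks). Ticks gather around 0, with 13 of 23 within 20 bp, and 2 peaks had their site 93 bp away, where the ticks overlap.

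The ligand genes were without an assigned peak. *Tgfb1* (chromosome 7, 25687002 to 25705077, plus strand), which codes for the main TGF-β ligand, had no peak within its 18.1 kb. However, the peak nearest to its TSS was a strong one, from 25676502 to 25676674, 10.4 kb upstream, with a score of 25.5. It was assigned to *Tmem91*, at -1422 bp of that gene's TSS, and its window held no NFI full site. A further peak, from 25706016 to 25706188 with a score of 14.9 and 1 full site, lay 1025 bp past the 3′ end of *Tgfb1* and was assigned to *Ccdc97*. Both were in the highest quartile of score, which began at 9.16. *Tgfb2* (chromosome 1, 186622787 to 186709697, minus strand) differed from *Tgfb1* in that the nearest peak lay 956 kb from its TSS, with a score of 3.98. Only 4.24% of protein-coding genes were farther from a peak than *Tgfb2*, and *Tgfb2* was the 1 gene of the 10 with no peak within 100 kb of a TSS, a state shared by 27.9% of protein-coding genes.

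The receptor genes differed in number of peaks. *Tgfbr1* (chromosome 4, 47353222 to 47414926, plus strand) had a single peak, at -57401 bp (47295735 to 47295907), and it scored 8.37. That peak lay in intron 28 of 39 of *Col15a1*, a collagen gene upstream of *Tgfbr1*, and held no NFI full site, and no peak lay in the body of *Tgfbr1* or within 10 kb of it. *Tgfbr3* (chromosome 5, 107106567 to 107289629, minus strand), the longest of the 10 genes at 183 kb, had 5 peaks. Their scores were 6.97 at -6956 bp, 5.58 at 155 bp in the 5′ UTR of exon 1, 4.78 at 51061 bp in intron 2, 13.1 at 121451 bp in intron 4 and 4.98 at 141348 bp in intron 6. The intron 4 peak, from 107168092 to 107168264, thus stood apart from the other 4, which lay between 4.78 and 6.97. A further pair of weak peaks, with scores of 4.38 and 3.98, lay in introns 15 and 16 of *Tgfbr3* but were assigned to *Cdc7*. The window at the *Tgfbr1* peak is shown because it had no full site, although the arms TGGC and GCCA each occur in it. The *Tgfbr3* window at 51061 bp is shown for its exact site.
*Tgfbr1*, -57401 bp, chr4:47295721-47295920: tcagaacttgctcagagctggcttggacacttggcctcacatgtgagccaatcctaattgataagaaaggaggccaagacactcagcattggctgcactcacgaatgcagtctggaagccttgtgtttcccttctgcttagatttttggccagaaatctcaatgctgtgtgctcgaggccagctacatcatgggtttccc
*Tgfbr3*, 51061 bp, chr5:107238468-107238667: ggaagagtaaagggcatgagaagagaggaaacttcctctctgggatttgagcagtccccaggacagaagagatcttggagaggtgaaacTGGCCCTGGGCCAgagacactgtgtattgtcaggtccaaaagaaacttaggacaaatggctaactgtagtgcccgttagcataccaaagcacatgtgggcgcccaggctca

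**Figure D2:**
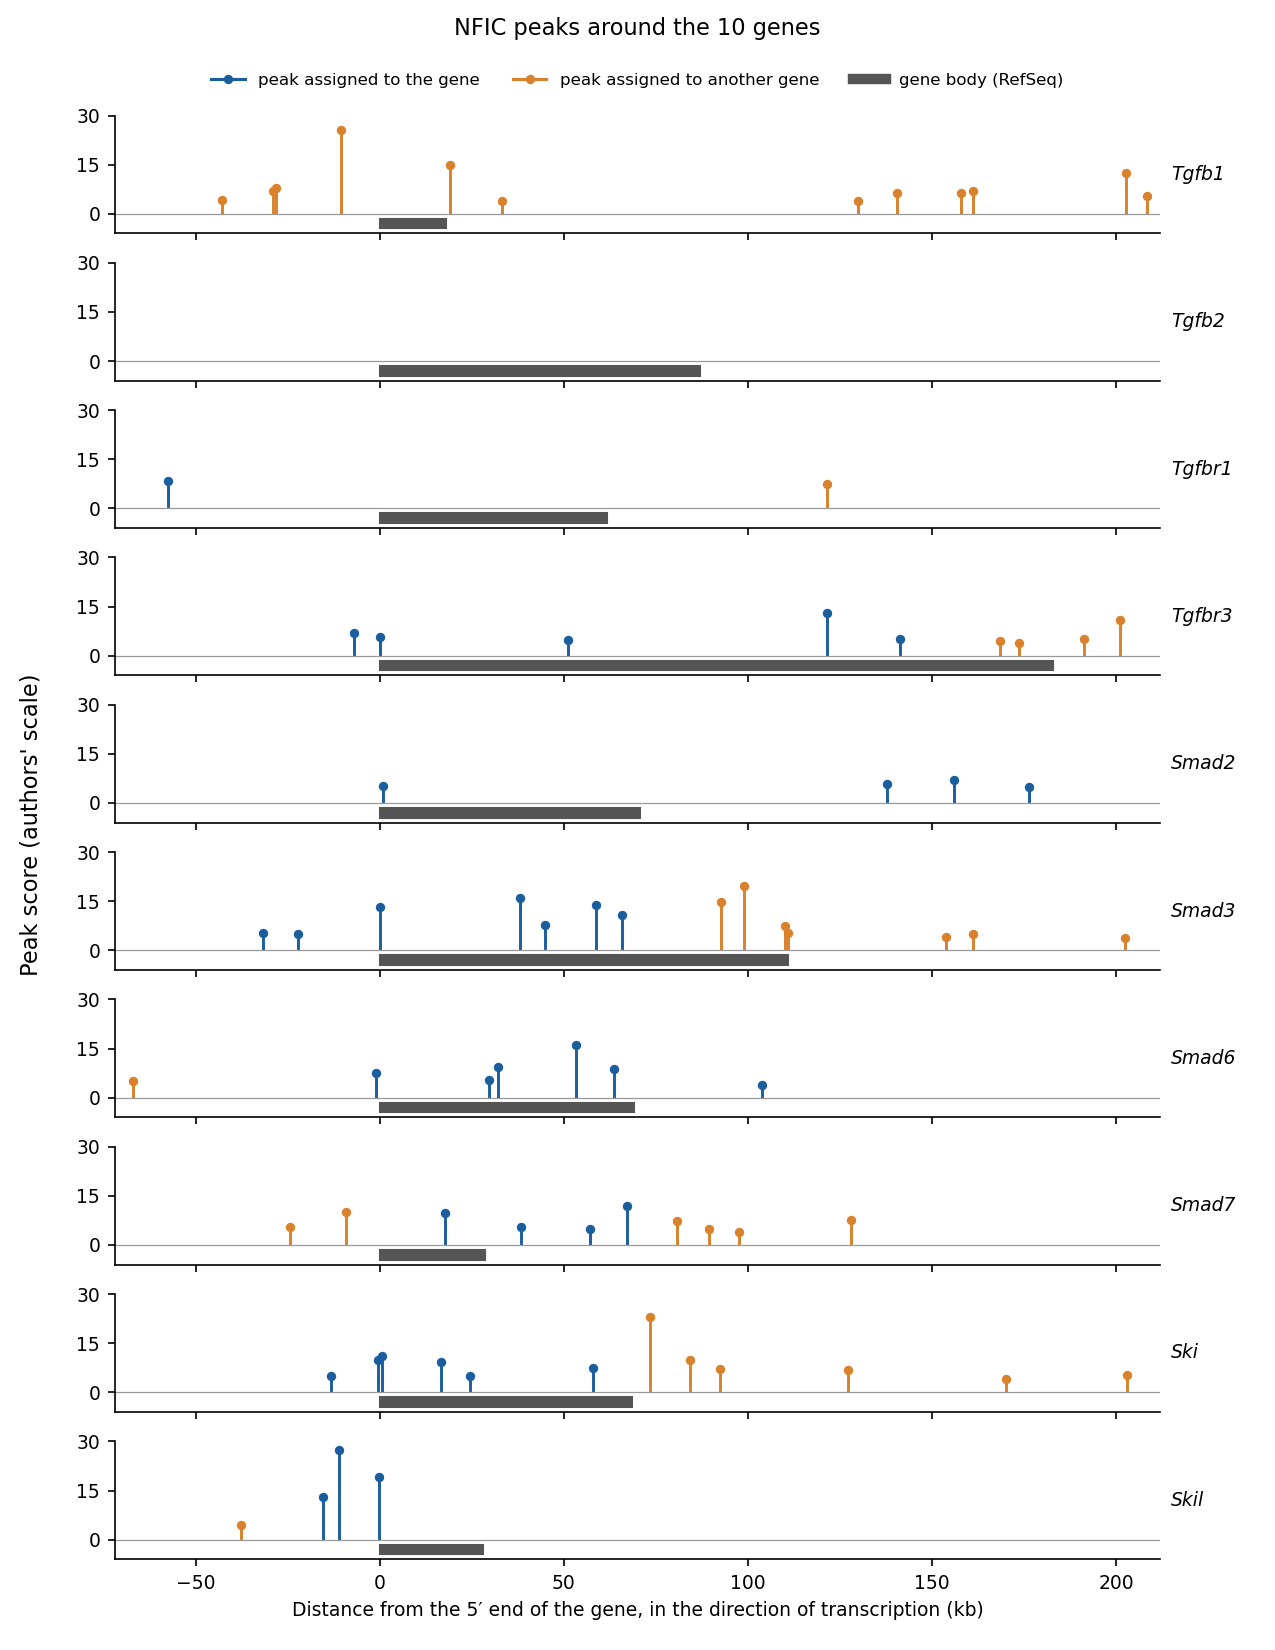
Position of NFIC peaks from 70 kb before to 210 kb past the 5′ end of each of the 10 genes (horizontal axis, kb, in the direction of transcription) and their score on the authors' scale (vertical axis). Blue stems are peaks assigned to the gene, orange stems peaks assigned to another gene, and grey bars the gene body. The panel of *Tgfb2* is empty, the peaks of *Skil* lie before the gene, and 4 orange stems stand within the body of *Smad3*.

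*Smad3* (chromosome 9, 63646766 to 63757994, minus strand), which codes for a SMAD that binds DNA directly, had 7 peaks, the most of the 10 genes. Only 0.314% of protein-coding genes had more. A peak from 63757900 to 63758072 was centred 8 bp past the TSS, with a score of 13.1 and no NFI full site. Intron 1 held 4 peaks, with scores of 16.1 at 38124 bp, 7.77 at 44880 bp, 13.7 at 58697 bp and 10.8 at 65877 bp. The remaining peaks, at -22136 and -31626 bp, were weaker, with scores of 4.98 and 5.38. The peaks from the TSS into intron 1 therefore all scored higher than the upstream peaks.

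The assignment to the nearest TSS left out part of the peaks within *Smad3*. Another 4 peaks lay in its body, in intron 4, intron 5 and the 3′ UTR of exon 9, but were assigned to *Aagab*, the neighbouring gene. The peak in intron 5, from 63659027 to 63659199, scored 19.5, higher than any peak assigned to *Smad3*, and its window held an exact NFI full site. The peak in intron 4 scored 14.7 and held no full site, and the peaks in the 3′ UTR scored 7.57 and 5.18. In all, 9 peaks lay in the 111 kb of *Smad3*, or 8.09 per 100 kb, the highest density among the 10 genes. Over the 10 genes, 6 of the 25 peaks inside a gene body were assigned to another gene (24.0%, 11.5 to 43.4), close to the 24.4% of 9575 peaks inside protein-coding genes. The window in intron 5 is given as the strongest within the gene.
Intron 5 of *Smad3*, chr9:63659013-63659212: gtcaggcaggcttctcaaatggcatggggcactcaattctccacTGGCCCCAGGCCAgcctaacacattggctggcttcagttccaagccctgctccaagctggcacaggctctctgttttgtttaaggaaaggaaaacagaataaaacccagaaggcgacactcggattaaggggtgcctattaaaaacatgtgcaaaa

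*Smad6*, which codes for an inhibitory SMAD active mainly against bone morphogenetic protein signals, is the next of the 10 genes on the same chromosome (63953076 to 64022085, minus strand), 195 kb from *Smad3*. It had 6 peaks. Intron 3, the last, held 4 of them, with scores of 5.38 at 29655 bp, 9.36 at 32185 bp, 16.1 at 53384 bp and 8.76 at 63505 bp, and each held an NFI full site. The peak nearest to the TSS, from 64023026 to 64023198 at -1053 bp, overlapped a CpG island and scored 7.57, and a peak at 103670 bp, past the 3′ end, had the lowest score of the 36 peaks, 3.98. Neither of these held a full site. The highest peaks of *Smad6* and of those assigned to *Smad3* had the same score, 16.1, and both were intronic. From the 3′ end of *Smad3* to the 5′ end of *Smad6*, a stretch of 375 kb held 16 peaks, of which 3 lay in the gap between the genes.

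The corepressor genes both had a peak in the promoter, taken as -1000 bp to the TSS, and were the only 2 of the 10 to do so (20%, 5.67 to 51.0, against 10.7% of 21027 protein-coding genes). The *Smad3* peak centred 8 bp past the TSS, with a score of 13.1, fell just outside this window. The authors placed that peak in the promoter-TSS class. *Skil* (chromosome 3, 31095058 to 31122923, plus strand), which codes for SnoN, had 3 peaks, all before the gene. Their scores were 12.9 at -15394 bp, 27.3 at -11173 bp and 19.1 at -233 bp. The peak at -11173 bp, from 31083799 to 31083971, ranked 56 by score of the 15824 peaks and was the highest of the 36. It overlapped the repeat MamRep605. The promoter peak, from 31094739 to 31094911, ranked 332, and no peak lay in the body of *Skil*. *Skil* was the 1 gene with all of its peaks in the highest quartile of score.

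*Ski* (chromosome 4, 155154075 to 155222535, minus strand), a proto-oncogene, had 6 peaks spread on both sides of its TSS. Their scores were 4.98 at -13254 bp, 9.76 at -458 bp, 11 at 683 bp in exon 1, 9.36 at 16505 bp, 4.98 at 24528 bp and 7.37 at 57863 bp, the last 3 in intron 1. The exon 1 peak, from 155221766 to 155221938, was the highest and lay 1141 bp from the promoter peak, the shortest distance between a peak of the 10 genes and any other peak. The highest peak around *Ski*, with a score of 22.9, lay 5025 bp past its 3′ end and was assigned to *Morn1*. The promoter window of *Ski* is shown for its base composition, 85.0% GC with 38 CpG dinucleotides.
*Ski*, -458 bp, chr4:155222893-155223092: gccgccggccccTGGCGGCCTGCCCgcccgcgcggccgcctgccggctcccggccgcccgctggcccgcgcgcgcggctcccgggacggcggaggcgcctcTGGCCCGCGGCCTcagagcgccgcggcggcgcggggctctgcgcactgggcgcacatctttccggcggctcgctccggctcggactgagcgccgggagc

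*Ski* and *Skil* code for related proteins, and their peaks differed in level and place. The 6 peaks of *Ski* had a median score of 8.37 and none was above 11, whereas the 3 peaks of *Skil* had a median of 19.1 and none was below 12.9. The scores of the peaks assigned to the paralogs did not overlap, but how often this holds for other pairs of genes is not given here. The peaks of a gene are also not replicates of it. The peak of 22.9 past the 3′ end of *Ski*, assigned to *Morn1*, lay within the range of the *Skil* peaks. Without replicates, the difference between the paralogs was not tested.

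**Figure D3:**
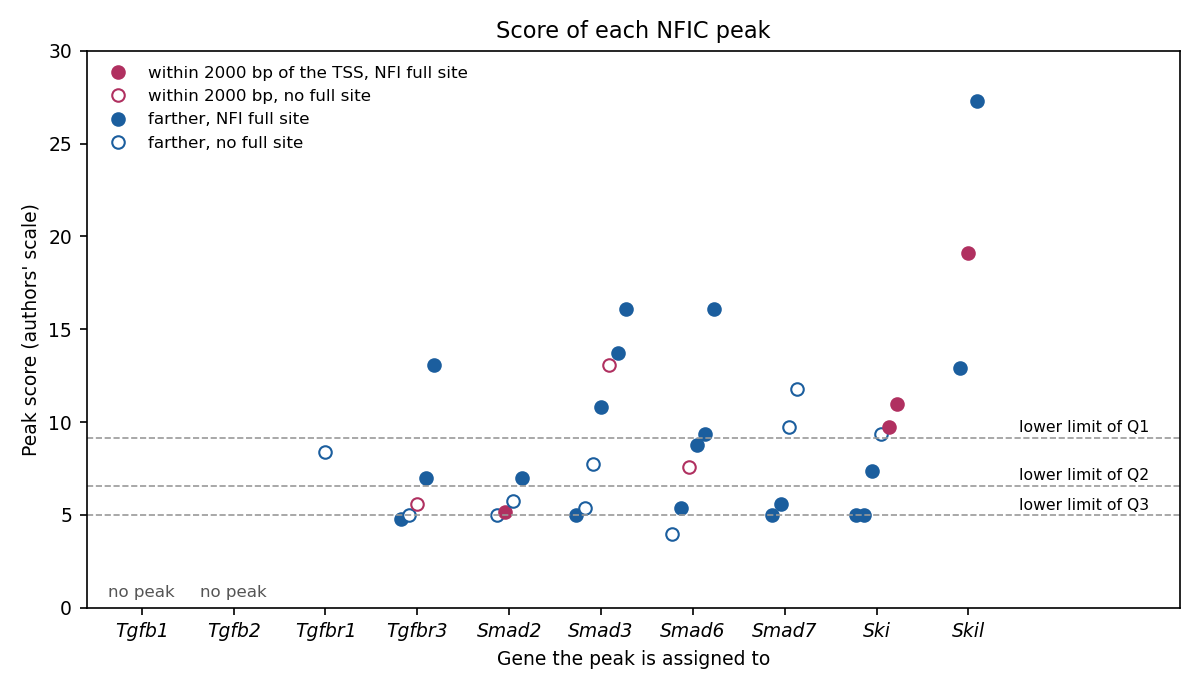
Score of each of the 36 NFIC peaks on the authors' scale, by the gene to which it was assigned. Red points lie within 2000 bp of the TSS and blue points farther away, filled points held an NFI full site in a 200 bp window, and dashed lines mark the lower limits of the score quartiles at 9.16, 6.57 and 4.98. *Skil* had the highest peak, at 27.3, and all 4 peaks of *Smad2* lay below 7.

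*Smad2* (chromosome 18, 76241090 to 76311748, plus strand), which codes for the other receptor-activated SMAD of the pathway, had 4 peaks. The peak from 76241765 to 76241937, in the 5′ UTR of exon 1 and at 150 bp of the nearest TSS of the gene, scored 5.18. The other 3 peaks lay far downstream, between genes, at 116437, 134668 and 154859 bp, with scores of 5.78, 6.97 and 4.98. *Smad2* thus had no peak above 6.97, and a single peak within its 70.7 kb. *Smad3* had 5 peaks of its own within the gene body and scores up to 16.1. Both genes had a peak next to the TSS, with scores of 5.18 at *Smad2* and 13.1 at *Smad3*. The peak of *Smad2* at 154859 bp was nearer to a TSS of *Gm31875* in the RefSeq annotation used here, and it was the 1 peak of the 36 to which that annotation gave another gene.

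*Smad7* (chromosome 18, 75367365 to 75395935, plus strand), the inhibitory SMAD that acts on TGF-β receptors, had 4 peaks, none within 2000 bp of the TSS. Their scores were 9.76 at 17607 bp in intron 3, 5.58 at 38469 bp, 4.98 at 57180 bp and 11.8 at 67274 bp. The last, from 75434553 to 75434725, lay in the 3′ UTR of the adjacent gene *Ctif*. The middle peaks, both between genes, each held an exact NFI full site, whereas the stronger peaks at 17607 and 67274 bp held none. The peak nearest to the TSS of *Smad7* was a peak 9231 bp upstream, assigned to *Gm20544*, with a score of 9.96. *Smad6*, the other inhibitory SMAD gene, had its strongest peak inside the gene and *Smad7* had it outside.

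The 10 genes were next set beside the whole list. A peak was assigned to 8 of the 10 (80.0%, 49.0 to 94.3), against 37.1% of 21027 protein-coding genes. In total, 6 of the 10 had 4 or more peaks (60.0%, 31.3 to 83.2), against 3.17% of protein-coding genes. Long genes can collect more peaks, so the count was repeated for genes of 50 kb or more, a limit chosen after the data were seen. Of the 7 such genes among the 10, 5 had 4 or more peaks (71.4%, 35.9 to 91.8), against 8.26% of 4877 genes of that length. The limit concerns the gene body, but peaks between genes were counted too. At *Smad2*, for example, 1 of the 4 peaks lay in the body. The length of the stretch around each gene was not adjusted for. A peak from -1000 to 1000 bp around the TSS was present at 5 of the 10, *Tgfbr3*, *Smad2*, *Smad3*, *Ski* and *Skil* (50%, 23.7 to 76.3, against 18.1%). The genes were chosen with earlier results of these data known, so these counts describe the genes and are no independent evidence that the pathway differs from others.

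**Figure D4:**
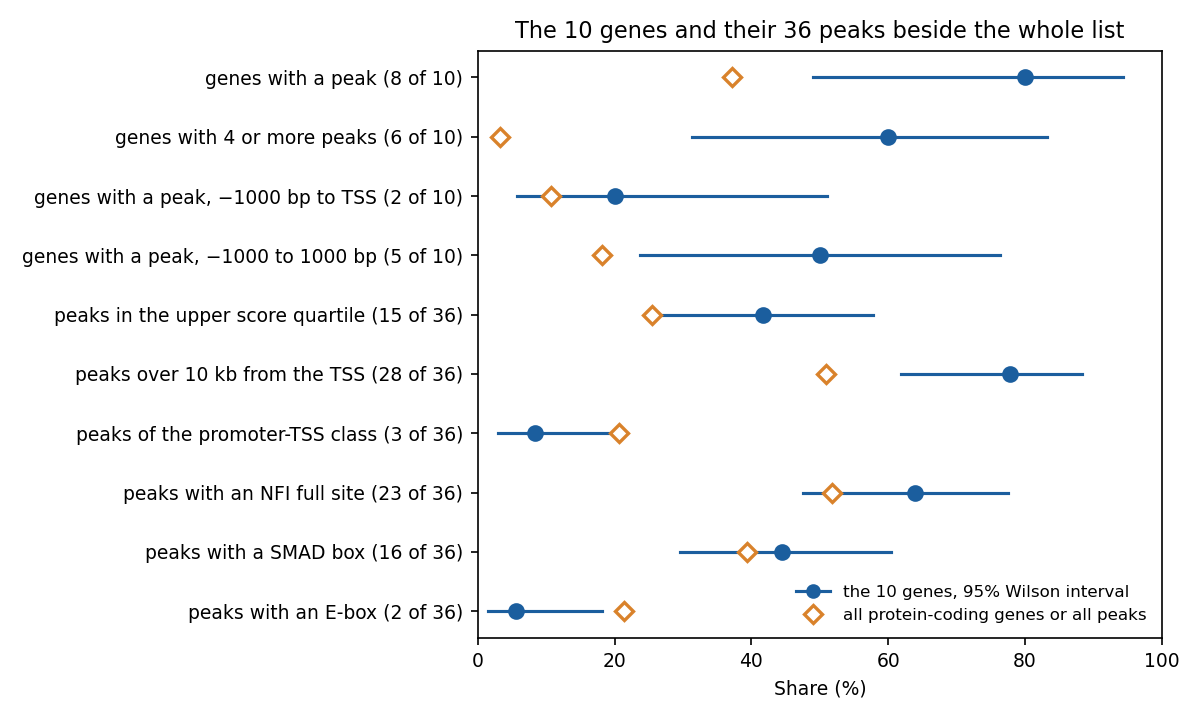
Shares in percent for the 10 genes or their 36 peaks (blue points, with 95% Wilson intervals for counting error) and for all protein-coding genes or all peaks of the list (orange diamonds). The points for genes with a peak (80.0% against 37.1%) and peaks over 10 kb from the TSS (77.8% against 50.9%) stand to the right of the diamonds, and the point for an E-box (5.56% against 21.4%) to the left. The genes were chosen with earlier results of these data known, so the shares are description only.

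Most peaks of the 10 genes were distal. In total, 28 of 36 lay over 10 kb from the TSS (77.8%, 61.9 to 88.3), against 50.9% of all peaks. This comparison was not adjusted for the length of the genes or for their number of peaks. By class of genomic element, 16 lay in introns (44.4%, against 40.8%), 13 in intergenic regions (36.1%, against 30.6%) and 3 in the promoter-TSS class (8.33%, against 20.7%). The intronic peaks had scores of 4.78 to 16.1 with a median of 9.06, and the intergenic peaks 3.98 to 27.3 with a median of 5.58. Scores by class are not given for the whole list. The median score over the 36 peaks was 7.67, and 6.57 over the whole list. The upper 2 quartiles held 22 of the 36 (61.1%, 44.9 to 75.2, against 51.6%), and the highest quartile 15 (41.7%, 27.1 to 57.8, against 25.5%). Because the genes were chosen with earlier results of these data known, the shares by distance, class and score are no independent evidence of a difference. Scores of the list were spaced by about 0.20, so that many peaks shared a score, among them 6 of the 36 at 4.98. The focus ratio, the part of the tags of a peak near its centre, had a median of 0.692 in the 36 peaks and 0.684 in the list.

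Among the 36 peaks, base composition differed with distance from the TSS. Base composition by distance is not given for the whole list, so this is not a trait particular to these genes. The median GC content was 55.2% over the 36 peaks and 54.0% over the list. The 7 peaks within 2000 bp of a TSS, at *Tgfbr3*, *Smad2*, *Smad3*, *Smad6*, *Ski* and *Skil*, had a GC content of 67.0 to 85.0% and 17 to 38 CpG dinucleotides in 200 bp. The 29 other peaks had a GC content of 45.5 to 75.5%, with a median of 53.0%, and a median of 3.0 CpG dinucleotides. Of the peaks near the TSS, 4 of 7 held an NFI full site (57.1%, 25.0 to 84.2, against 41.1% of the 4987 peaks of the list within that distance), and of the others 19 of 29 did (65.5%, 47.3 to 80.1, against 56.7% of 10837). The single NFI arm TTGGCA was present in 11 of 36 windows (30.6%, against 33.6%). All 11 lay over 2000 bp from the TSS, as did 29 of the 36 peaks. The share of this arm by distance was not computed for the whole list. By score, the full site was present in 11 of 15 peaks of the highest quartile (73.3%, 48.0 to 89.1, against 68.0% of all peaks of that quartile) and in 12 of the 21 others (57.1%, 36.5 to 75.5, against 46.2%). The highest peak held a full site in 6 of the 8 genes, all but *Tgfbr1* and *Smad7* (75.0%, 40.9 to 92.9), against 53.6% of the 9086 genes of the list, with the first listed peak taken where scores tied. These shares are not like for like. The highest peak is taken from more peaks where a gene has many, and 4 or more were assigned to 60.0% of the 10 genes against 3.17% of protein-coding genes.

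Motifs of other factors were searched on both strands of the same windows. The SMAD box CAGAC, the short sequence that SMAD3 and SMAD4 bind, was present in 16 of 36 windows (44.4%, 29.5 to 60.4), against 39.4% of all peaks. It was present at least once at *Tgfbr1*, *Tgfbr3*, *Smad2*, *Smad3*, *Smad6*, *Smad7*, *Ski* and *Skil*, and a motif of 5 letters is common by length alone. The SMAD palindrome GTCTAGAC was present in 0 of 36, which allows a share of up to 8.33% (3 counts of 36, used in place of an interval for a count of 0), against 0.114% of all peaks. The AP-1 motif TGAGTCA (0 of 36, against 3.65%) and the NR5A2 motif TCAAGGTCA (0 of 36, against 0.442%) were not detected either, with the same limit. The E-box CAGCTG, bound by bHLH factors such as PTF1A, was present in 2 of 36 (5.56%, 1.54 to 18.1), against 21.4%, at *Smad2* and *Smad3*. The FOX motif TGTTTAC was present in 2 of 36 (against 3.97%), at *Smad3* and *Ski*, and the GATA motif AGATAA in 2 of 36 (against 8.78%), at *Smad6* and *Smad7*. A match or its absence concerns these letters and windows alone.

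A further 62 genes of the TGF-β superfamily pathway were counted, grouped by role. Of these, 42 had a peak (67.7%, 55.4 to 78.0), against 37.1% of protein-coding genes. They had 83 peaks in all, of which 45 held an NFI full site, beside 51.8% of all peaks of the list. These genes too were chosen with earlier results of these data known. The median score of the 83 peaks was 7.57, against 6.57 over the whole list, with a range of 3.78 to 22.9. By role, a peak was assigned to 5 of 10 ligand genes, 8 of 11 receptor genes, all 4 other SMAD genes, 7 of 9 genes for ligand latency and activation, 10 of 16 genes for inhibitors and turnover and 8 of 12 target genes. *Tgfb3*, the remaining TGF-β ligand gene, had 2 peaks, both with a full site, of which the nearer, at 51811 bp, scored 3.78 and the other 4.78. Among the ligand genes, no peak was assigned to *Inhba*, *Gdf11*, *Bmp4*, *Bmp6* or *Lefty1*. *Smad4*, which codes for the SMAD shared by all branches of the pathway, had 3 peaks, the highest with a score of 8.37 at 9 bp, and *Smad5* had a peak of 22.9 at 52419 bp. The single peak of *Tgfbr2*, the gene of the type II receptor, lay at 76324 bp with a score of 3.98.

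**Figure D5:**
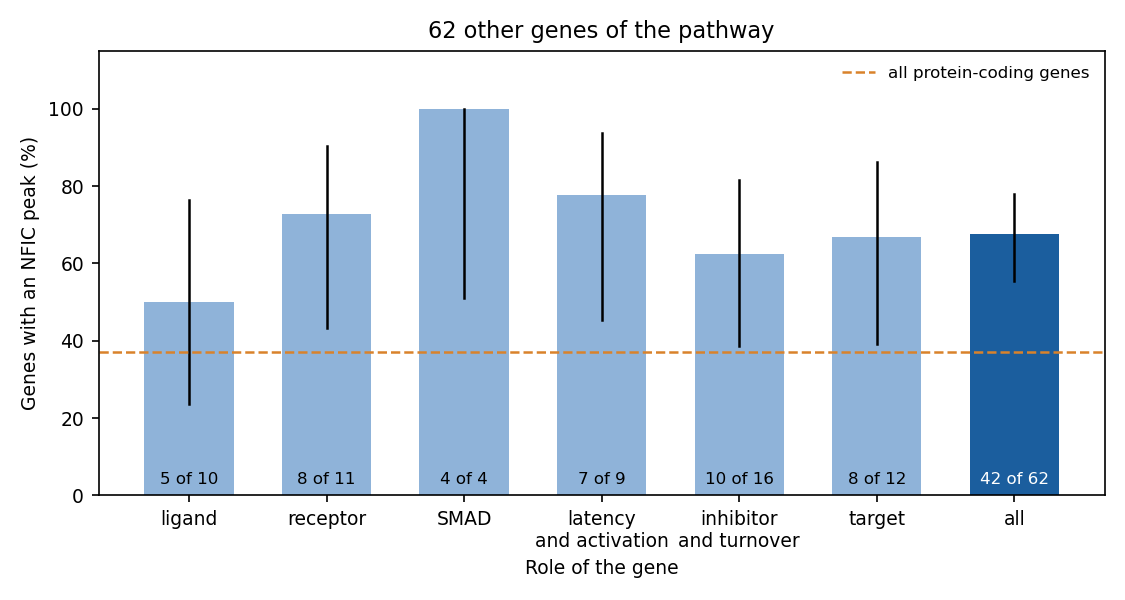
Share of genes with an NFIC peak in percent (bars) among 62 other pathway genes by role, with 95% Wilson intervals for counting error (lines) and the share of all protein-coding genes (dashed line, 37.1%). The bar of the ligand genes is the lowest, at 5 of 10, and its interval includes the dashed line.

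Promoter peaks, from -1000 bp to the TSS, were present at 12 of the 62 genes, set beside 10.7% of all protein-coding genes. A full site was found in 6 of the 12 peaks, and in 37.7% of the 2433 promoter peaks of the list. Their scores ranged from 4.78 to 13.7. The highest was at *Ppm1a*, a phosphatase gene, at -215 bp. It was followed by *Bambi*, a pseudoreceptor gene, with 9.96 at -149 bp. The receptor gene *Acvr1c* had a score of 8.37 at -181 bp. Others were *Acvr1b*, *Smad1*, *Smad9*, *Ltbp1*, *Ltbp2*, *Itgav*, *Smurf2* and *Snai2*. By number of peaks, *Acvr2a*, an activin receptor gene, came first with 8, followed by *Inhbb* with 6, *Bmp7* with 5, and *Bmpr1b* and *Pmepa1* with 4 each. *Acvr2a* thus had more peaks than any of the 10 genes, and its highest score was 16.7.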

How the data were processed

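NFIC ChIP libraries (3) and input DNA (1) of wild-type mouse pancreas were represented by 1 list of peaks on mm10, which the authors deposited without values per library. The paper's methods name HOMER for the merging of replicate peaks, in a paragraph on other ChIP-Seq data, and do not say whether this list was merged in that way. The same paragraph names both the RUbioSeq+ pipeline and HOMER for peak calling. The paper also gives a narrower range of age than the labels, and a mainly C57BL/6 background for the crosses. The header names the annotatePeaks.pl program of HOMER, and the submitters' processing notes name BWA, Picard and MACS2. Their versions and thresholds are not given in the sources used here, and which program called these peaks is not certain. The score deposited for each peak has no stated scale and was used only to rank and describe peaks. The deposited focus ratio is a fraction of tags. The list had 0 columns for single libraries, so depth per library is unknown and no test was run.

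Peaks were taken by gene name, as the authors assigned them. For the other pathway genes, *Ccn2* and *Ccn1* were looked up also as *Ctgf* and *Cyr61*. Protein-coding genes with a curated transcript, TSSs and sequences came from the RefSeq copy of GRCm38.p6, the assembly of mm10. It gave the same distance to the TSS for 35 of the 36 peaks. The genes named in the text are the 10 genes, other pathway genes with a promoter peak, the 5 of these with the most peaks, and genes whose body held a peak. Genes beside *Tgfb1*, *Smad3*, *Smad7* and *Ski*, and the other pathway genes named beside a count, were picked with their values known. 1 gene with a promoter peak is counted but not reported here by name. The genes and lists were chosen with earlier results of these data known. The motif and TSS steps were tested on simulated data, where 100% of 1000 planted motifs were found. Quartiles of score run from Q1, the highest. Python 3.11, numpy 2.4.6, pandas 2.3.3, scipy 1.17.1 and matplotlib 3.10.9 were used.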

Additional observations from a re-analysis of the deposited data

How the results depend on the processing

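The 7 values of the report on peaks, genes, scores and NFI sites were recomputed under 33 alternatives, 3 of them chosen after the data were seen. Keeping only the upper 2 quartiles of score left 22 of the 36 peaks, and 8 genes still had a peak. The count of genes with a promoter peak rose from 2 to 5 when the window reached 1000 bp past the TSS. The share of peaks in the upper quartile alone was 41.7%. With no mismatch allowed the share of peaks with an NFI full site was 11.1%, and with the single arm TTGGCA in its place 30.6%. The other alternatives moved no share or median outside its 95% interval and no count by over 1.5 times. With every peak in or within 10 kb of a gene body counted, whatever its assigned gene, there were 34 peaks and a median score of 9.06. Without *Skil* the median score was 7.37. No alternative without a replicate was possible, because the list does not separate the libraries. No paired analysis was possible because the list has no values for single libraries.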
